A study of Mus musculus with 2 samples.

Results

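The epicardial mesothelium spots are the 80 spots, of 1671 in 2 mouse heart sections, that held the largest shares of mesothelial transcripts. Visium captures polyadenylated RNA from a tissue section on an array of barcoded spots and counts molecules as UMIs (unique molecular identifiers). In each section, spots with at least 500 UMIs and 0 UMIs of Ccl21a were put in order of the UMI share of 7 genes, Msln, Upk3b, Upk1b, Wt1, Krt19, Gpm6a and Aldh1a2, and the 40 spots with the largest share were taken. In the PD1 Het section 772 of 812 spots met these limits, which left 732 other spots for comparison. In the PD1 KO section 836 of 859 spots met them, which left 796. Each spot can hold several cells of different types, so the chosen spots are small regions and not purified cells.

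Both hearts came from C57BL/6 mice that had myocardial infarction, by tying off the left anterior descending artery at 2 days of age, and both were collected 7 days after the operation. One animal was PD1 Het, with 1 disrupted copy of PD1 (Pdcd1), the inhibitory receptor of activated lymphocytes, and the other was PD1 KO. A transverse cryosection of 10 µm thickness, cut 200 µm below the suture, was placed on the array from each heart. No uninjured heart and no wild-type mouse are part of the comparison, so both sections share the infarction, and there is 1 section per genotype.

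The epicardium is the mesothelial sheet that covers the heart. It has the features of an epithelium, with keratins, uroplakins and the surface glycoprotein mesothelin, and it lies directly on fibroblasts and muscle. In the embryo its cells undergo epithelial to mesenchymal transition and give rise to fibroblasts and mural cells, and they release retinoic acid and growth factors that act on the muscle below. After infarction the sheet is known to thicken and to switch on embryonic genes such as Wt1 and Aldh1a2.

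The chosen spots held 483004 UMIs in PD1 Het and 866601 in PD1 KO, against 11551806 and 22218585 in the other spots. Their median depth was 13530 UMIs per spot against 15464 in the other PD1 Het spots, and 21764 against 27291 in the PD1 KO section. Depth ran from 1641 to 23555 UMIs in the PD1 Het chosen spots, 9 of which had fewer than 5000, and from 5352 to 40870 in the PD1 KO chosen spots, none of which did. Mitochondrial genes took 25.5% of UMIs in the PD1 Het chosen spots and 25.4% in the other spots, and 16.0% and 15.8% in the PD1 KO section. A gene with 0 UMIs in the chosen spots could still be present at up to 6.21 CPM in PD1 Het and 3.46 CPM in the PD1 KO section, the level of 3 counts. CPM are a gene's UMIs per 1000000 UMIs of the spots summed, ratios are log2 unless called fold, and the 95% intervals cover counting error only, not differences between animals. Because the spots were chosen on these same counts, ratios of chosen over other spots are descriptions without a test.

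Pdcd1 itself had 0 UMIs in both sections, chosen or other, so the genotype labels could not be checked on it. The sections also differed in sex-linked transcripts: Xist had 26 UMIs in the PD1 Het chosen spots and 0 in the PD1 KO ones, and 4 Y-linked genes together had 0 and 108. Genotype, animal, sex-linked transcripts and section therefore cannot be told apart. The barcode lists shared 225 barcodes, which name array positions and not cells. Spot positions were not used here, so whether the chosen spots lie at the heart's surface was not examined.

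The 7 genes used for the choice were high in the chosen spots by construction. Together they had 403.7 CPM against 51.3 in the other PD1 Het spots and 375.0 against 65.8 in the PD1 KO section. The boundary was not a natural gap: the 40th spot had a marker share of 209.6 CPM and the 41st of 208.5 in PD1 Het, and 220.2 and 218.9 in the PD1 KO section. Few molecules carried the choice. A PD1 Het chosen spot had a median of 4 marker UMIs (range 2 to 23) and a PD1 KO chosen spot 7.5 (range 4 to 26), and 16 PD1 Het spots were chosen on 3 or fewer. The first PD1 Het spot had 23 marker UMIs and a share of 5255.9 CPM.

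Msln (mesothelin; chromosome 17, 25748613 to 25754378, minus strand, GRCm38) supplied most marker molecules next to Aldh1a2, the enzyme that makes retinoic acid. Msln had 57 UMIs in 23 of the 40 PD1 Het chosen spots, or 118.0 CPM against 4.76 in the other spots. In the PD1 KO section it had 112 UMIs in 28 chosen spots, or 129.2 CPM against 9.68. The uroplakins, membrane proteins of mesothelium and bladder lining, were at 55.9 against 1.3 CPM for Upk3b and 31.1 against 0.519 CPM for Upk1b in the PD1 Het section. The PD1 KO levels were 53.1 against 2.7 CPM for Upk3b and 27.7 against 0.675 CPM for Upk1b. Krt19, an epithelial keratin, was at 16.6 against 1.21 CPM in PD1 Het and 18.5 against 2.25 CPM in the PD1 KO section. Gpm6a, a membrane glycoprotein, was at 45.5 against 1.73 CPM and 30.0 against 3.56 CPM in that order. Smaller contrasts were seen for Wt1, a transcription factor of epicardium, at 22.8 against 10.1 CPM in PD1 Het and 46.2 against 11.6 CPM in PD1 KO. Aldh1a2 was at 113.9 against 31.7 CPM and 70.4 against 35.4 CPM.

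To see whether each marker follows the others, the 40 spots were chosen again with the remaining 6 markers and the level of the left-out marker was read in them. Upk1b was then 38.8-fold higher in the chosen PD1 Het spots and 33.0-fold in the PD1 KO ones. Upk3b was 34.1-fold and 13-fold higher, Msln 17.3-fold and 3.73-fold, Krt19 13.7-fold and 6.41-fold, and Gpm6a 5.51-fold and 6.02-fold, each PD1 Het first. These 5 of the 7 markers thus occurred together in the same spots of both sections. Wt1 was 1.34-fold higher in PD1 Het, with a log2 ratio of 0.43 (interval -0.92 to 1.51) that includes no difference, and 2.78-fold higher in PD1 KO.

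Aldh1a2 (chromosome 9, 71215789 to 71296243, plus strand) went against the label when it was left out. Its level in spots chosen by the other 6 markers was 0.775 times that of the remaining PD1 Het spots, a log2 ratio of -0.37 (-1.22 to 0.37), and 0.492 times in the PD1 KO section, a log2 ratio of -1.02 (-1.81 to -0.34). Some chosen spots therefore rest on Aldh1a2 and not on a mesothelial surface. Of the 40 spots, 27 in PD1 Het and 35 in PD1 KO had at least 1 UMI of Msln, Upk3b, Upk1b or Krt19, called surface markers below, while 13 and 5 did not. Spots whose marker UMIs were all Aldh1a2 numbered 5 and 3.

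**Figure D1:**
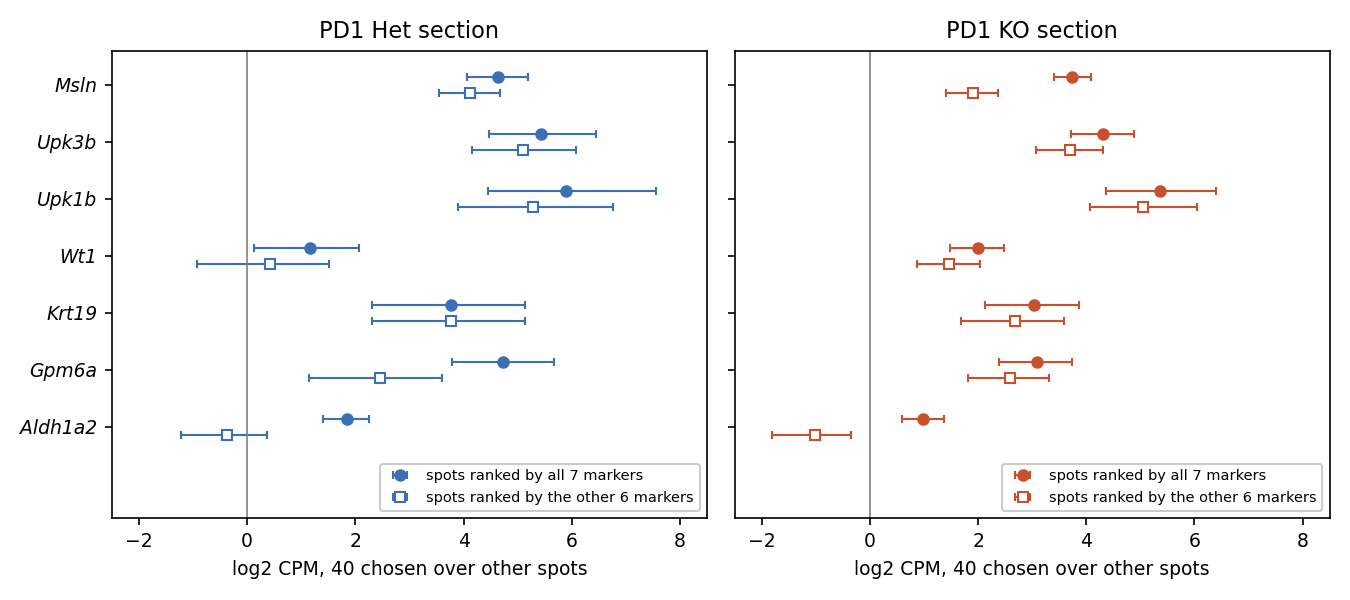
Log2 ratio of CPM in 40 chosen spots over the other spots (x axis) for each of the 7 rule markers (y axis), PD1 Het section left and PD1 KO section right. Filled points use the rule with 7 markers, open points the choice with the plotted marker left out, and bars are 95% intervals of counting error. Open points stay well above 0 for Msln, Upk3b, Upk1b, Krt19 and Gpm6a, and lie below 0 for Aldh1a2 in both sections.

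A list of 23 other mesothelial and epicardial genes, none of them used by the rule, was higher in the chosen spots as a sum. It had 751.5 CPM against 142.9 in the PD1 Het section, a log2 ratio of 2.39 (2.23 to 2.56), and 999.3 against 203.7 CPM in the PD1 KO section, a log2 ratio of 2.29 (2.19 to 2.40). The size depended on the choice of spots. Over the alternatives the lowest value in PD1 Het was 0.87, after spots of at least 5000 UMIs were thinned to 5000 before ranking and shallower spots left out. In PD1 KO the lowest was 1.27, when spots were ranked without Msln, Upk3b and Upk1b. Of its members, 11 had at least 100 UMIs over all spots. Of those 11, 8 were at least 2 times higher in both sections and 11 were above in both by any size. Among all 11382 genes with 100 UMIs, 123 (1.08%) were at least 2 times higher in both and 112 (0.984%) at most 1/2 in both, while 3461 (30.4%) were above in both by any size and 2873 (25.2%) below in both. The median log2 ratio of these members was 1.58 in PD1 Het and 1.81 in PD1 KO, against 0.03 and 0.02 for all those genes. The list was put together with earlier results of these sections known and is no independent evidence for the label.

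C3 and Igfbp6 supplied most of the molecules of that list. Without both, the remaining 21 genes had 291.9 against 120.8 CPM in the PD1 Het section, a log2 ratio of 1.27, and 439.6 against 157.6 CPM in the PD1 KO section, a log2 ratio of 1.48. Dmkn (dermokine), a secreted protein of epithelia, had 10 UMIs in the 40 PD1 Het chosen spots against 6 in the 732 other spots, and 21 against 19 in the PD1 KO section. Krt7, a simple-epithelium keratin, had log2 ratios of 4.36 in PD1 Het and 4.03 in PD1 KO. The membrane-bound transcription factor Myrf had ratios of 3.36 and 4.51, the matrix protein Efemp1 3.15 and 3.37, and Lrrn4, a leucine-rich repeat protein of mesothelium, 5.32 and 3.83. Wnt4, a secreted Wnt ligand counted with the ligands below, had 5 UMIs against 6 in PD1 Het and 13 against 16 in PD1 KO.

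Less contrast was seen for the keratins that other cells also use and for embryonic epicardial genes. Krt8 had log2 ratios of 1.97 in PD1 Het and 1.21 in PD1 KO, Krt18 0.91 and 0.90, and Tbx18, an epicardial transcription factor, 0.88 and 0.96. Ezr, a linker of the actin cortex, was nearly even at 0.14 and 0.52. Isl1 and Calb2 had 0 UMIs in the chosen spots of both sections. A list of epithelial junction genes was also near even, with a summed log2 ratio of -0.02 (-0.17 to 0.12) in PD1 Het and -0.21 (-0.31 to -0.11) in PD1 KO.

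The mesothelial transcripts were concentrated in the first ranks. In the PD1 Het section the summed level of the 23 genes was 2266.4 CPM in the first 10 spots, 1611.2 in spots 11 to 20, 138.0 in spots 21 to 40 and 138.0 from spot 161 on. The lower-ranked PD1 Het chosen spots thus held no more of these genes than the rest of the section. In the PD1 KO section the levels were 2562.2, 1059.7, 520.6 and 192.0 CPM for the same ranks, so the excess reached further down. The first 10 PD1 Het spots were shallow, with 50742 UMIs together. Requiring at least 5000 UMIs kept 31 of the 40 in PD1 Het and 40 of 40 in PD1 KO. Thinning the spots of at least 5000 UMIs to 5000 before ranking, with shallower spots left out, chose 16 of the 40 again in each section. Thinning also removes marker UMIs at random, so its turnover cannot be read as an effect of depth alone. Within the chosen spots, those with a surface marker UMI had 1048.3 CPM of the 23 genes against 171.3 in those without in PD1 Het, and 1114.0 against 186.6 in PD1 KO.

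**Figure D2:**
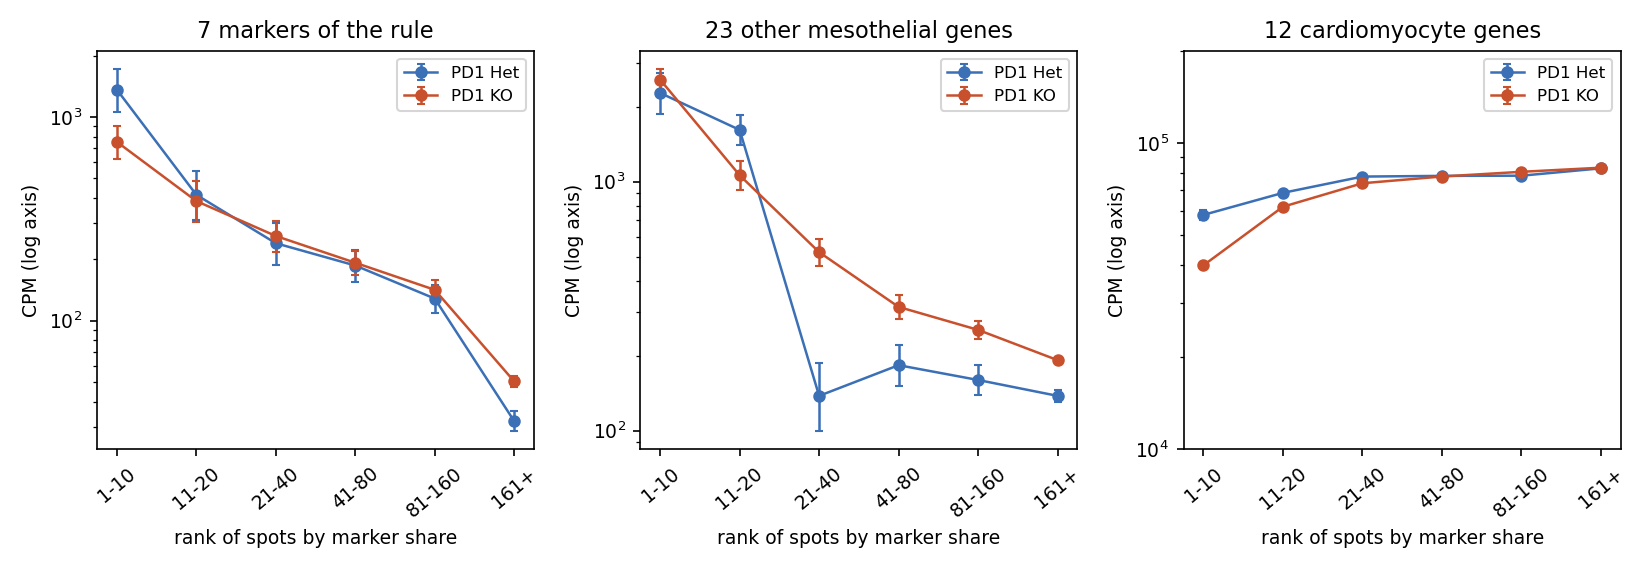
Summed CPM (log axis) of gene groups in spots grouped by their rank on the marker share (x axis, first rank left), one line per section with 95% intervals of counting error. The 23 other mesothelial genes drop from 2266.4 CPM to 138.0 by spots 21 to 40 in PD1 Het, and more gradually from 2562.2 to 520.6 in PD1 KO.

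Beyond the markers, 29 of 3704 genes (0.783%) with at least 50 UMIs in the chosen spots were at least 2 times higher there than in the other spots in both sections. Of 3504 genes with at least 50 UMIs expected, 0 (0.0%) were at most 1/2 in both. Ranked by the lower ratio of the 2 sections, the largest contrasts were those of Saa3, the complement protein C3 and the growth factor binding protein Igfbp6. The UMIs of Saa3 lay in only 6 PD1 Het and 3 PD1 KO chosen spots. Of the 29, only C3 and Igfbp6 stayed at least 2 times higher in both sections under each of 13 alternatives. These were other ways of choosing or scaling the spots. 15 of the 29 stayed above the other spots in both sections under each of the 13.

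C3, the central component of complement (chromosome 17, 57203970 to 57228136, minus strand), had 171 UMIs in 15 PD1 Het chosen spots, with at most 36 in 1 spot. Its level was 354.0 CPM against 8.83, a log2 ratio of 5.33 (4.96 to 5.69). In the PD1 KO section 377 UMIs lay in 31 chosen spots, at most 74 in 1 spot, and the level was 435.0 against 32.2 CPM, a log2 ratio of 3.76 (3.57 to 3.94). In PD1 Het 171 of the 171 C3 UMIs lay in spots with a surface marker UMI, and in PD1 KO 376 of 377 did. Such spots were 27 of the 40 chosen spots in PD1 Het and 35 in PD1 KO.

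Igfbp6, which binds insulin-like growth factors (chromosome 15, 102144362 to 102149511, plus strand), had 51 UMIs in 19 PD1 Het chosen spots and 108 in 27 PD1 KO chosen spots. Its level was 105.6 against 13.2 CPM in PD1 Het, a log2 ratio of 2.99 (2.51 to 3.46), and 124.6 against 14.0 CPM in PD1 KO, 3.16 (2.83 to 3.48). Neither gene rested on a single spot, in contrast to Saa3. Saa3, an acute-phase serum amyloid protein, had 55 UMIs in the PD1 Het chosen spots, 33 of them in 1 spot, and 46 in the PD1 KO chosen spots, 43 of them in 1 spot. Its log2 ratios of 6.90 and 7.40 are those of a few spots.

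Other complement genes were higher along with C3. The complement and surface defence list had 7 members with at least 100 UMIs over all spots. Of these, 3 were at least 2 times higher in both sections and 6 were above in both, against 1.08% and 30.4% of all genes. Both counts include C3 itself. C1s1, a protease of the first complement complex, had log2 ratios of 1.97 (1.21 to 2.66) in PD1 Het and 2.03 (1.57 to 2.46) in PD1 KO, and C1ra, its partner protease, 1.67 and 1.60. C4b had 9 UMIs against 32 in PD1 Het and 13 against 43 in PD1 KO. Serping1, the inhibitor of the first complex, had ratios of 0.89 and 1.54. Cd59a, which blocks the membrane attack complex, was at 0.55 in PD1 Het and -0.26 in PD1 KO. The list without C3 had 397.5 against 228.1 CPM in PD1 Het, a log2 ratio of 0.80 (0.58 to 1.01), and 520.4 against 238.9 CPM in PD1 KO, 1.12 (0.98 to 1.26).

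The 29 included 3 members of the scar matrix list, Timp1, Col12a1 and Tnc, along with other genes named here because they were among the 20 highest. Timp1, an inhibitor of matrix proteases, had log2 ratios of 1.49 in PD1 Het and 2.19 in PD1 KO. The matrix proteins and matrix-binding proteins Aebp1 (1.36 and 1.79), Thbs2 (1.13 and 1.36), Thbs3 (1.22 and 1.21) and Col12a1 (1.16 and 2.15) were also at least 2 times higher in both sections. Several PD1 Het ratios of this paragraph turned under another choice of spots: Timp1 to -0.33 and Col12a1 to -0.40 with spots of at least 5000 UMIs. After thinning to 5000 UMIs, Timp1 was at -0.17, Col12a1 at -1.28, Scara3 at -0.25 and Sdc1 at -0.01. Col12a1 was at -0.04 by mean rank of the 7 markers, and Thbs3 at -0.1 by the 4 surface markers. Cdh11, a cadherin of mesenchymal cells, had 1.2 and 1.74, Cpxm1, a carboxypeptidase-like protein, 1.51 and 1.53, and the scavenger receptor Scara3 2.36 and 3.13. Tnc (tenascin C), a matrix protein of healing wounds, had 1.1 and 3.15, and the long noncoding RNA Meg3 1.93 and 1.52. Sdc1, a heparan sulfate proteoglycan, the iron carrier Trf and the metal-binding protein Mt2 lay between 1.16 and 2.29.

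Genes known from macrophages and mast cells were also among the 20 highest. Ctss, a lysosomal protease of macrophages, had log2 ratios of 1.44 in PD1 Het and 1.45 in PD1 KO, and Lgals3 (galectin 3) had 2.79 and 1.35, with 10 of its 13 PD1 Het UMIs in 1 spot. Cma1, a mast cell chymase, had 27 UMIs in 6 PD1 Het chosen spots and 44 in 8 PD1 KO chosen spots, ratios of 1.62 and 2.26. Its PD1 Het ratio turned to -0.44 when spots with Ccl21a were also allowed and to -1.14 when spots were ranked by the mean rank of the 7 markers. Retnla, a secreted protein of alternatively activated macrophages, had 1 UMI in PD1 Het and 87 in 10 PD1 KO chosen spots, 43 of them in 1 spot.

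**Figure D3:**
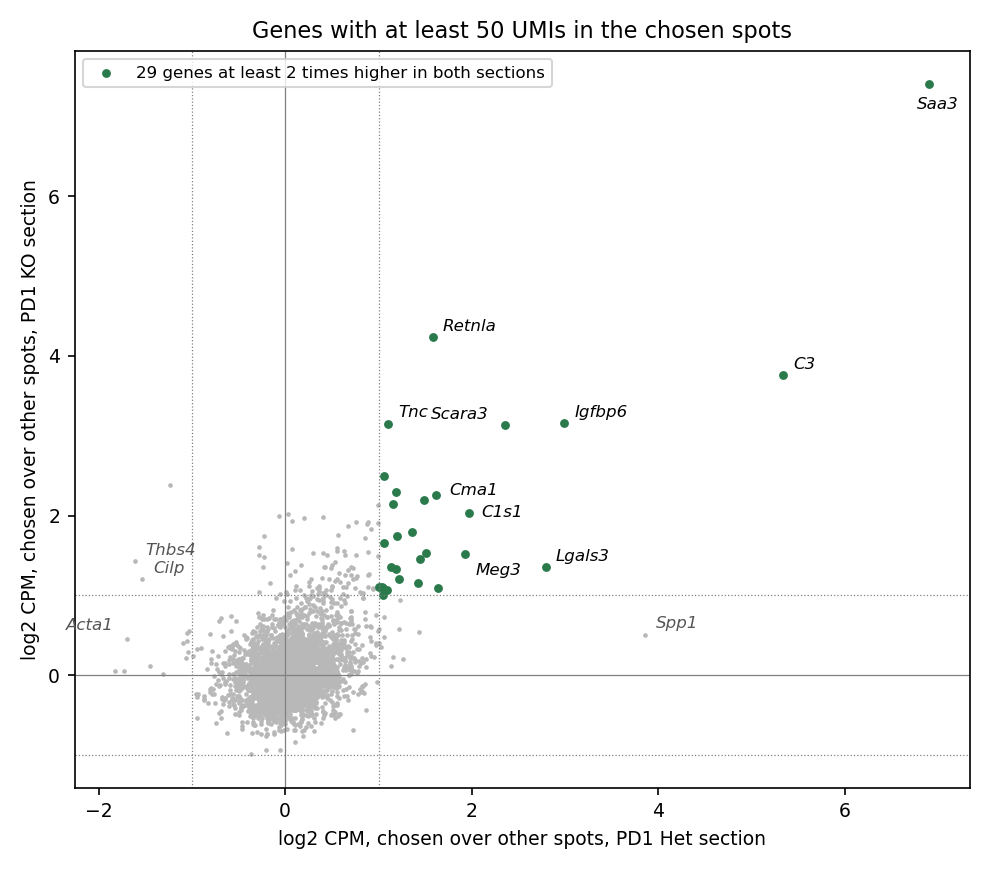
Log2 ratio of CPM in the chosen over the other spots for genes with at least 50 UMIs in the chosen spots, PD1 Het section on the x axis and PD1 KO section on the y axis, 1 point per gene. The 29 genes at least 2 times higher in both sections are green; C3 lies at 5.33 and 3.76 and Igfbp6 at 2.99 and 3.16.

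Among genes with at least 50 UMIs expected in the chosen spots, the lowest ones still had few molecules there. Arfrp1, a small GTPase of vesicle traffic, had 9 UMIs in the PD1 Het chosen spots and 29 in the PD1 KO ones, log2 ratios of -1.53 (-2.67 to -0.60) and -0.69 (-1.27 to -0.16). Acp1, a protein tyrosine phosphatase, had -0.73 and -0.80, and the remaining 8 of the 10 lowest genes by the rule, Plin4, Lsm3, Paqr9, Snrpn, Efna1, Hist1h4h, Ushbp1 and Glyr1, lay between -1.19 and -0.56.

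Heart muscle transcripts were slightly lower in the chosen spots. Ventricular cardiomyocyte markers, the sarcomere and calcium-handling genes, had 73301.7 CPM against 81923.1 in PD1 Het, a log2 ratio of -0.16 (-0.18 to -0.15), and 65243.4 against 82570.1 CPM in PD1 KO, -0.34 (-0.35 to -0.33). A chosen spot gave a median of 7.1% of its UMIs to these genes in PD1 Het against 8.3% in the other spots, and 6.72% against 8.47% in PD1 KO. A lower level in a spot can mean fewer cells of a type or less RNA per cell, and these cannot be told apart here. Endothelial markers had summed log2 ratios of -0.21 and -0.44, pericyte markers -0.08 and -0.49, and red blood cell genes -0.82 and -0.23, PD1 Het first. Endocardial markers, which name the inner lining of the chambers, were at 0.87 (0.51 to 1.22) and 0.88 (0.60 to 1.14), but the sum turned to -1.36 in PD1 Het with 20 spots per section and to -0.2 in PD1 KO when spots were ranked by the 4 surface markers. Among them Plvap, a protein of fenestrated vessels, had 15 UMIs in PD1 Het and 25 in PD1 KO. Ranking by the 4 surface markers alone turned its ratio of 1.04 in PD1 Het to -1.63 and that of 1.07 in PD1 KO to -0.11.

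Fibroblast and macrophage transcripts were more abundant in the chosen spots. Fibroblast markers had 7300.1 against 4618.5 CPM in PD1 Het, a log2 ratio of 0.66 (0.61 to 0.71), and 16040.8 against 5958.5 CPM in PD1 KO, 1.43 (1.40 to 1.45). Over the alternatives the lowest values were 0.03 in PD1 Het, by mean rank of the 7 markers, and 0.68 in PD1 KO, after thinning to 5000 UMIs. None of the 9 members was at least 2 times higher in both sections (1.08% of all genes) and 8 were above in both (30.4%). Collagen genes led the list: Col1a1 had ratios of 0.89 and 1.92, Col1a2 0.92 and 1.83, and Dcn (decorin) 0.64 and 0.90. Macrophage markers had 561.1 against 315.1 CPM in PD1 Het, 0.83 (0.65 to 1.01), and 954.3 against 405.1 CPM in PD1 KO, 1.24 (1.13 to 1.34), and 10 of 10 members were above in both (30.4% of all genes), 2 of them (Cd68 and Ctss) at least 2 times (1.08%). In PD1 Het both turned: Cd68 to -0.93 and Ctss to -0.29 after thinning to 5000 UMIs, and Ctss to -0.7 by mean rank of the 7 markers. The complement subunit C1qb, made by macrophages, had 0.70 and 1.36, and the lysozyme gene Lyz2 1.23 and 0.94, the first turning to -0.95 by mean rank.

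In PD1 Het scar and macrophage transcripts were lower in the spots with surface markers than in those without. The 27 PD1 Het spots with a surface marker UMI had 3367.1 CPM of scar matrix genes against 5304.6 in the 13 without, and 397.4 CPM of macrophage markers against 881.0. Single spots weighed on this: 1 PD1 Het spot without a surface marker UMI held 197 of the 1943 scar matrix UMIs. Of the 271 macrophage UMIs, 65 lay in 1 PD1 Het chosen spot. In PD1 KO the order was the opposite. The 35 spots with a surface marker UMI had 9387.4 CPM of scar matrix genes against 6074.0 in the 5 without, and 1020.5 CPM of macrophage markers against 485.2. The 4 muscle-poor PD1 KO spots described below were among the 35. They held 1962 of the 7780 scar matrix UMIs and 144 of the 827 macrophage UMIs of the chosen spots. The macrophage sum in PD1 Het turned to -0.54 when spots were ranked by the mean rank of the 7 markers. Of the 40 chosen spots, 18 in PD1 Het and 21 in PD1 KO belonged to the fifth of all spots with the largest share of scar matrix genes.

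Lung and fat could lie against the heart, and their marker lists showed no summed excess. Most UMIs of both lists came from genes that heart tissue also expresses. Lung epithelial markers had summed log2 ratios of 0.01 (-0.21 to 0.22) in PD1 Het and -0.38 (-0.54 to -0.22) in PD1 KO, with 191 and 344 UMIs in the chosen spots. Of these, 190 and 342 were Hopx, which heart muscle also expresses, 1 and 2 were Ager, and Sftpc, Sftpb, Sftpa1 and Scgb1a1 had 0. Adipocyte markers were at -0.28 (-0.42 to -0.15) and -0.51 (-0.61 to -0.41). Their 462 and 860 UMIs came from Cidea (21 and 35) and from Fabp4, which capillaries also express, while Adipoq, Plin1, Ucp1, Cfd and Pck1 had 0. Because Hopx and Fabp4 dominate them, the lung and adipocyte sums cannot decide whether such tissue was present. Liver and gut neighbour markers were above the other spots but had too few molecules to compare. PD1 Het chosen spots held 1 UMI, a log2 ratio of 0.99 (-4.42 to 3.75). PD1 KO chosen spots held 2, a ratio of 1.43 (-1.71 to 3.48). T cell markers, which include the cells in which Pdcd1 acts, had 3 UMIs in PD1 Het and 12 in PD1 KO. Their summed log2 ratio was 0.64 (-1.69 to 2.28) in PD1 Het. In PD1 KO they were higher in the chosen spots, at 13.8 against 4.41 CPM, a log2 ratio of 1.65 (0.65 to 2.52). Without the 4 muscle-poor spots described below that ratio was 1.17 (-0.08 to 2.20). Cd274, which encodes the PD-1 ligand PD-L1, had 0 and 1 UMIs in the chosen spots, and Pdcd1lg2 0 and 1, too few to compare at this depth. In the other spots Cd274 had 4 UMIs in PD1 Het and 47 in PD1 KO, a log2 ratio of 2.61 (1.16 to 4.55) between those sections.

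The retinoic acid pathway was examined because epicardium is a source of this hormone. Of its 9 members with at least 100 UMIs, which do not include Aldh1a2, 1 was at least 2 times higher in both sections (1.08% of all genes) and 7 were above in both (30.4%). The 1 was Aldh1a3, another enzyme that makes retinoic acid, with 4 UMIs in PD1 Het and 24 in PD1 KO and log2 ratios of 1.33 (-0.62 to 2.81) and 3.36. The PD1 KO ratio was 0.46 without the 4 muscle-poor spots described below, which ends the count of 1, and the PD1 Het ratio was -0.19 by mean rank. Dhrs3, a retinal reductase, had 0.57 and 0.51, and the receptor gene Rara was near even at -0.03 and 0.07, while Rxra, the partner receptor, was at -0.77 and 0.01. The summed ratio was 0.62 (0.38 to 0.86) in PD1 Het and 1.11 (0.97 to 1.25) in PD1 KO.

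Secreted factors that epicardium is known to send to muscle were less marked. None of the 17 measured ligands was at least 2 times higher in both sections, 10 were above in both (30.4% of all genes) and 2 below in both (25.2%), and the summed log2 ratios were 0.35 (0.22 to 0.47) and 1.0 (0.94 to 1.06). Ptn (pleiotrophin), a heparin-binding growth factor, had 0.76 and 1.5. Fstl1, a secreted glycoprotein of epicardium, had 0.36 and 1.12, Igf2 0.30 and 0.88, and Mdk (midkine) 0.44 and 1.0. The chemokine Cxcl12 was near even at -0.03 and 0.21, and Vegfa was below at -0.21 and -0.14. Among genes of epithelial to mesenchymal transition, Cdh11 was at least 2 times higher in both sections, while the transcription factors Snai2 and Zeb1 were at -0.51 and -0.03 and at -0.26 and -0.13. Fn1 (fibronectin) had 0.41 in PD1 Het and 1.98 in PD1 KO, and Vim (vimentin) 0.22 and 0.64. Cell cycle genes were lower in sum in both, at -0.23 (-0.41 to -0.04) and -0.23 (-0.34 to -0.11), with 10 of 19 below in both (25.2% of all genes). Of the 19, 2 were at most 1/2 in both (0.984%): the cyclins Ccnb1, with 0 and 11 UMIs, and Ccne2, with 0 and 3 UMIs.

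In the PD1 KO section 4 chosen spots, ranks 3, 4, 6 and 9, held almost no heart muscle. They were singled out after their values were seen. Cardiomyocyte markers took 0.431% to 0.686% of their UMIs, while the lowest share was 2.48% in the remaining 36 chosen spots and 3.42% in the other PD1 KO spots. No PD1 Het spot fell under 1%, the lowest chosen one being at 2.3%. Their mitochondrial share ran from 2.22% to 3.4%, and they held 7476 to 22370 UMIs each, 58723 together.

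These 4 spots carried mesothelial genes without mesothelin. Msln had 0 UMIs in them, a limit of 51.1 CPM, against 138.6 CPM in the remaining 36. Wt1 was at 306.5 against 27.2 CPM, with 18 of the 40 Wt1 UMIs of the PD1 KO chosen spots, and Upk3b at 170.3 against 44.6 CPM. Both are rule markers that helped to choose these spots, so their levels describe the choice. Of the genes not used by the rule, Dmkn was at 187.3 against 12.4 CPM. Myrf was at 374.6 against 12.4 CPM, C3 at 1941.3 against 325.5 CPM and Igfbp6 at 476.8 against 99 CPM. Efemp1 had 0 UMIs, but the limit of 51.1 CPM lies above its 33.4 CPM in the remaining 36, so no difference can be read from it.

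Wound matrix and inflammatory genes were high in the same 4 spots. Fn1 was at 15888.2 CPM against 991.5 in the remaining chosen spots and 508.9 in the other spots, and Tnc at 1992.4 against 82.9 and 23.9 CPM. Arg1 (arginase 1; chromosome 10, 24915221 to 24927484, minus strand), an enzyme of wound macrophages, had 50 of its 50 UMIs in the PD1 KO chosen spots there, at least 229.3-fold higher per UMI than in the remaining 36. Rarres1, a retinoic acid responsive gene, had 30 against 0 UMIs, at least 137.6-fold higher, and Saa3 45 of 46. The retinoic acid enzyme Aldh1a3 was at 357.6 against 3.71 CPM, the decoy receptor Tnfrsf11b at 391.7 against 2.48 CPM (2 UMIs), and Cd44, a hyaluronan receptor, at 1072.8 against 32.2 CPM. Scar matrix genes in sum were at 33411.1 against 7201.6 CPM and macrophage markers at 2452.2 against 845.4 CPM, while MHC class II genes were at 221.4 against 316.9 CPM.

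Several results of the PD1 KO section leaned on these spots. Without them the number of genes at least 2 times higher in both sections was 17 in place of 29. The log2 ratio of chosen over other spots was 1.24 in place of 2.00 for Wt1, 1.94 in place of 2.29 for the 23 mesothelial genes, and 3.34 in place of 3.76 for C3. The retinoic acid sum was 0.56 in place of 1.11, and that of the epithelial to mesenchymal transition genes 0.66 in place of 1.37.

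**Figure D4:**
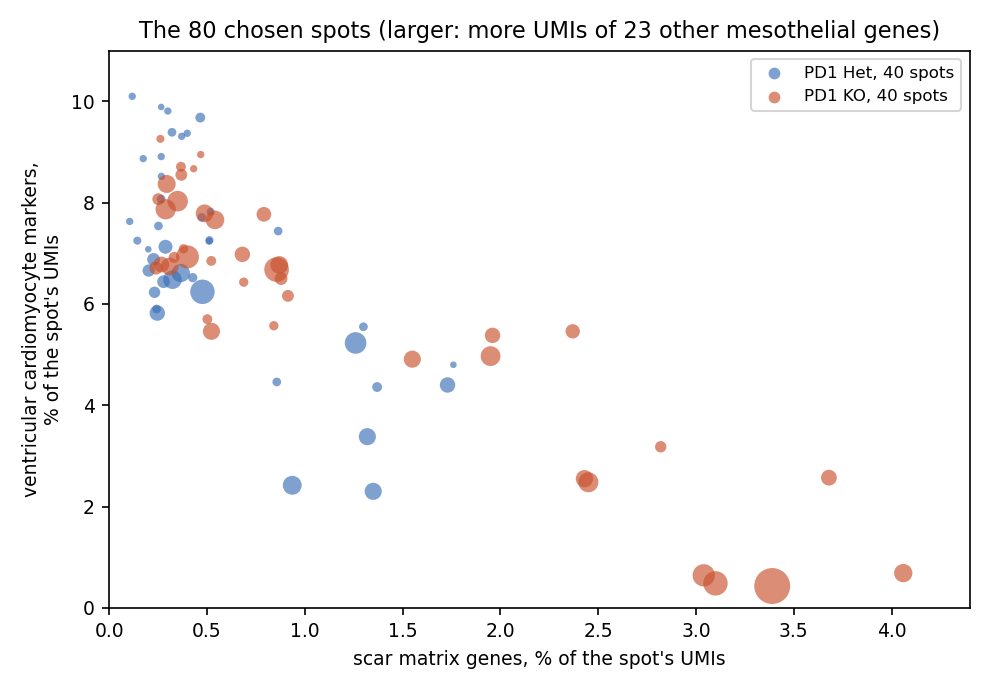
Each of the 80 chosen spots by its share of UMIs from scar matrix genes (x axis, %) and from ventricular cardiomyocyte markers (y axis, %), coloured by section; point area grows with the UMIs of the 23 other mesothelial genes. The 4 PD1 KO spots at 0.431% to 0.686% cardiomyocyte markers lie apart at the bottom.

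The comparison of PD1 KO with PD1 Het sets the chosen spots of both infarcted hearts side by side, and cannot tell genotype from animal, sex-linked transcripts or section. It rests on 40 spots of 1 section each, so no test was possible, and ratios are given relative to the median gene, whose log2 ratio was 0.23 in the chosen and 0.26 in the other spots. Of 3708 genes with at least 50 UMIs in the chosen spots, 486 (13.1%) were at least 1.5 times above the median gene in PD1 KO and 283 (7.63%) at least 1.5 times below. Mesothelial genes that the rule did not use were near the median gene in the chosen spots. C3 was at 0.06 relative to the median gene, against 1.61 in the other spots, and Igfbp6 at 0.00 against -0.18. The sum of the 23 genes was at 0.18 against 0.25, with a range of -0.37 to 1.07 over the alternatives. The 7 rule markers decided which spots were taken in each section, so their values describe the choice: they ran from -0.93 for Aldh1a2 and -0.84 for Gpm6a to 0.78 for Wt1. The complement and surface defence list was at 0.11.

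MHC class II genes, which present antigen to helper T cells, showed the largest contrast of the gene lists. H2-Aa (chromosome 17, 34282744 to 34287823, minus strand) had 1 UMI in the PD1 Het chosen spots and 56 in 15 PD1 KO ones, a 31.2-fold ratio with a log2 interval of 2.43 to 10.29. H2-Ab1 had 0 and 58 UMIs, at least 10.8-fold higher against the limit of 3 counts. Cd74, the invariant chain, had 8 UMIs in 5 spots and 111 in 19 spots, 16.6 and 128.1 CPM, or 2.72 relative to the median gene. The PD1 KO molecules were concentrated: 5 chosen spots held 80 of the 111 Cd74 UMIs, and 5 held 37 of the 56 H2-Aa UMIs. A single spot held 54 of the 269 UMIs of the whole list. The list had 26.9 CPM in PD1 Het and 310.4 in PD1 KO, 3.29 relative to the median gene against 0.90 in the other spots of the same sections, and this ranged from 1.41 to 3.94 over the alternatives. Against their own section, the chosen spots of PD1 KO were high in these genes (310.4 against 83.0 CPM, a log2 ratio of 1.90 with an interval of 1.71 to 2.09). Those of PD1 Het, with 13 UMIs, could not be told from it (26.9 against 37.1 CPM, -0.46 with an interval of -1.39 to 0.33), and their ratio was 0.96 when spots were ranked by the 4 surface markers. MHC class I genes were at 445.1 and 1223.2 CPM, 1.22 relative to the median gene against 0.47 in the other spots.

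Macrophage markers differed less, at 0.53 relative to the median gene in the chosen spots and 0.10 in the other spots. Interferon response genes were at 0.14 and 0.02. Arg1 had 0 UMIs in PD1 Het and 50 in PD1 KO, at least 9.29-fold higher, and these lay in the 4 muscle-poor spots. Retnla had 1 and 87 UMIs, a 48.5-fold ratio with a log2 interval of 3.08 to 10.92.

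Scar and stressed-muscle genes were also higher in the PD1 KO chosen spots. Thbs4, a matrix protein of injured muscle, had 2 and 97 UMIs, a 27.0-fold ratio with a log2 interval of 2.86 to 7.82. Cilp, a matrix protein of cardiac fibroblasts, had 4 and 127 UMIs, 17.7-fold, and Abi3bp, a collagen-associated protein, 5 and 84 UMIs, 9.36-fold. C1qtnf3, a secreted protein related to C1q, had 0 and 60 UMIs, at least 11.1-fold higher. Nppa, the atrial natriuretic peptide that stressed ventricle makes again, was at 155.3 and 2093.2 CPM, 13.5-fold. Acta1, the skeletal actin of fetal and stressed heart, was at 35.2 and 362.3 CPM, 10.3-fold. Both were concentrated: 5 of the PD1 KO chosen spots held 1413 of the 1814 Nppa UMIs, and 5 held 236 of the 314 Acta1 UMIs. In PD1 Het the top 5 chosen spots held 42 of 75 and 10 of 17. The other spots differed in the same direction by less: relative to the median gene, Nppa was at 3.52 in the chosen and 2.16 in the other spots, Thbs4 at 4.52 and 1.46, Cilp at 3.91 and 1.16, and Acta1 at 3.13 and 0.94. Scar matrix genes in sum were at 0.92 against 0.16 and fibroblast markers at 0.90 against 0.11. Genes of epithelial to mesenchymal transition were at 1.24 against 0.15, or 0.56 without the 4 muscle-poor spots, and epicardial ligands at 0.87 against 0.19. Tnc was at 2.64 and Fn1 at 1.78, and without the 4 muscle-poor spots these were 1.32 and 0.80, with the scar sum at 0.64.

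Since scar and mesothelium can share a spot, chosen and other spots were also divided by the fifth with the largest share of scar matrix genes. The 23 mesothelial genes in sum were higher in the chosen spots of both zones. They were at 1371.5 CPM in the scar-rich and 453.7 in the remaining chosen spots of PD1 Het, against 231.8 and 125.4 in the other spots, and in PD1 KO at 1537.6 and 592.0 against 371.7 and 172.9 CPM. Single members had few molecules: of the Dmkn UMIs in PD1 KO chosen spots 19 lay in scar-rich and 2 in remaining spots, and of those of Krt7 13 and 1. C3 was at 759.1 and 159.4 against 9.99 and 8.60 CPM in PD1 Het, and at 613.4 and 300.0 against 58.1 and 27.4 CPM in PD1 KO. Within the chosen spots C3 was higher in the scar-rich ones, and in both zones the chosen spots were above the other spots. The first of these contrasts leaned on few spots in PD1 KO. There the 4 muscle-poor spots, all scar-rich, held 114 of the 229 C3 UMIs of the scar-rich chosen spots. C3 was concentrated in PD1 Het too, where 5 chosen spots held 113 of the 171 C3 UMIs, counted over both zones.

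The PD1 KO genes divided otherwise. Thbs4 was at 251.8 CPM in the 21 scar-rich PD1 KO chosen spots and 6.08 in the 19 remaining ones, and at 201.8 and 12.3 in the other spots of these zones. Nppa was at 4419.8 and 332.5 CPM in the chosen spots and 10220.1 and 560.6 in the other spots, and C1qtnf3 at 160.7 and 0 against 76.4 and 3.83 CPM. In PD1 KO these genes lay in scar-rich spots whether chosen or not. The other spots of PD1 Het divided the same way, with Thbs4 at 54.1 and 4.46 CPM and Nppa at 1350.2 and 195.0. Scar-rich chosen spots of PD1 Het lay below the other scar-rich spots of that section. They had Thbs4 at 6.38 CPM (1 UMI) and Nppa at 248.8 CPM, so the ratios between genotypes also rest on low PD1 Het values. Cd74 differed: in PD1 KO it was at 136.6 CPM in scar-rich and 121.6 in the remaining chosen spots, against 102.5 and 21 in the other spots. Retnla was at 109.8 and 93.3 CPM in the PD1 KO chosen spots, against 21.2 and 2.45 in the other spots. Both chosen values of Retnla rested on few spots. Of its 87 UMIs in the chosen spots, 41 lay in scar-rich and 46 in remaining spots. The 4 muscle-poor spots held 35 of the 41, and 1 spot held 43 of the 46. In the PD1 Het section Cd74 was at 25.5 and 12.3 in the chosen and 33.6 and 12.2 CPM in the other spots, so no excess of the chosen spots was seen there in either zone.

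**Figure D5:**
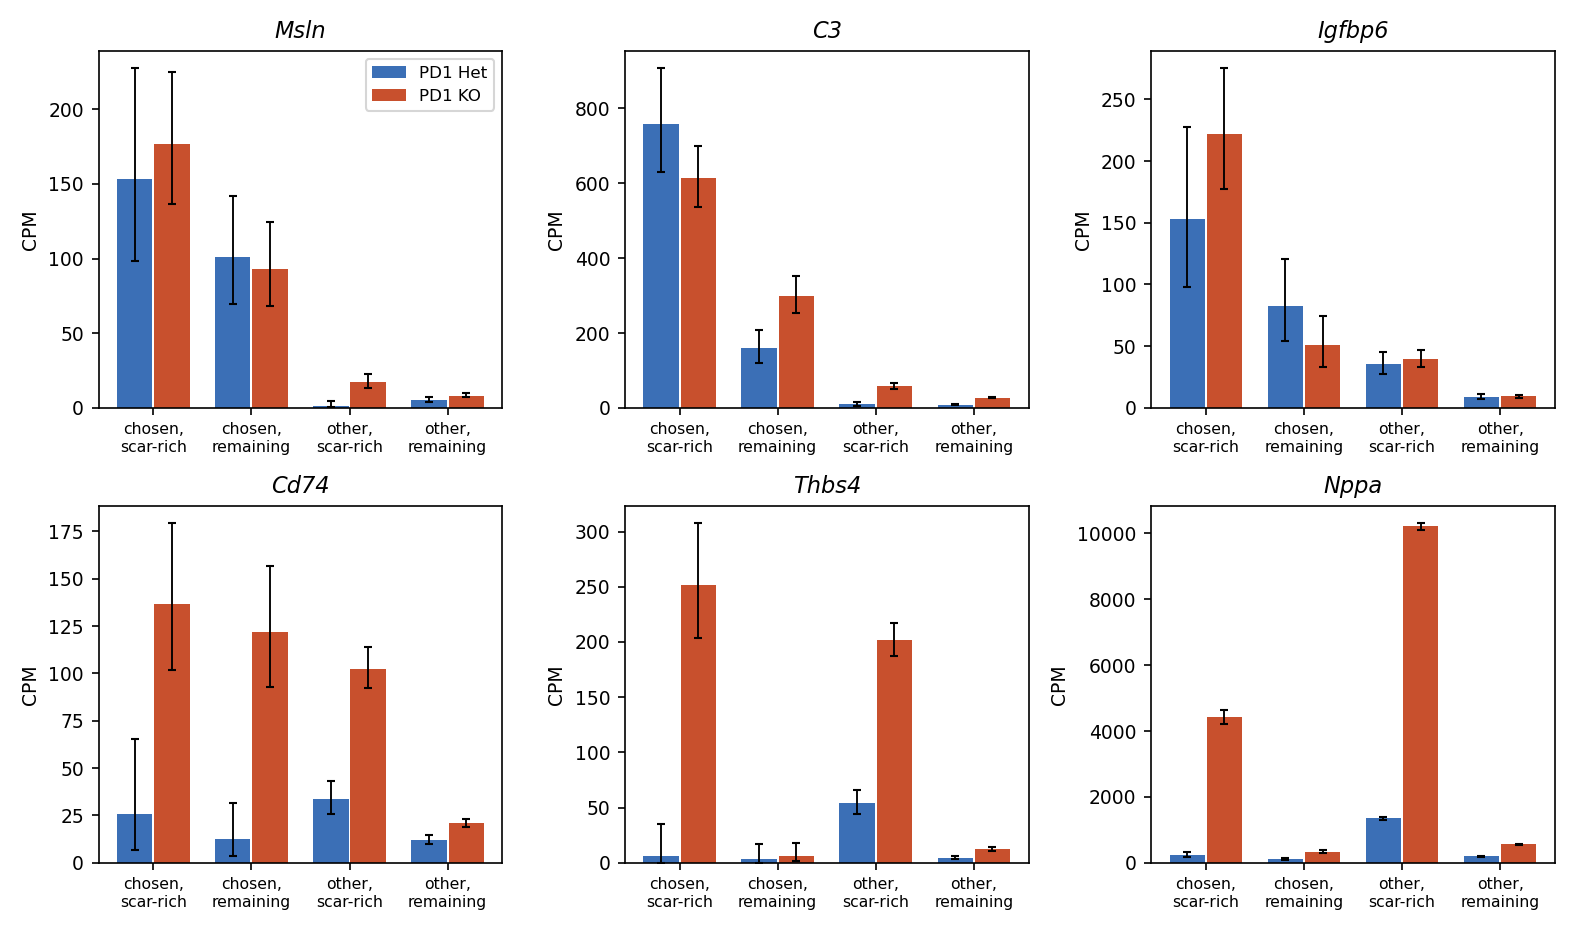
CPM of single genes or lists (1 panel each, bars from 0 with 95% intervals of counting error) in 4 sets of spots: chosen and other spots, each divided into scar-rich spots (the fifth with the largest scar share) and the remaining spots, with PD1 Het and PD1 KO side by side. C3 is high in chosen spots of both zones, as is Msln, a marker used to choose them, Thbs4 and Nppa in scar-rich spots of PD1 KO, and Cd74 in PD1 KO chosen spots of both zones (136.6 and 121.6 CPM).

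Genes lower in the PD1 KO chosen spots differed by smaller ratios. Spp1 (osteopontin), a matrix and macrophage protein of wounds, was at -2.27 relative to the median gene, with 82 UMIs in PD1 Het and 36 in PD1 KO. Of the 82, 68 lay in 1 PD1 Het spot, and without the top spot of each section the value was -0.18. Saa3 was at -1.34 and likewise lay in few spots. The remaining 8 of the 10 lowest genes, Timm8a1 and Mtfp1 of mitochondria, the tubulin Tuba8, the plasminogen-binding protein Clec3b, the kinase Stk11, the glutathione transferase Gstm5, the complement regulator Cd59a and the nucleotide-sugar transporter Slc35b1, lay between -1.54 and -1.17 with 24 to 58 UMIs in a section. In the other spots these 8 lay between -0.94 and 0.16.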

How the data were processed

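UMI counts per gene and spot were deposited by the authors. Per the file headers they were produced by Space Ranger 1.1.0, on mm10 (GRCm38), per the submitters' processing notes; aligner settings: not given in the sources used here. Symbols and gene IDs came from the deposited feature tables, and 32158 of 32285 IDs were found in GENCODE vM21, which gave positions.

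Counts were summed over chosen and other spots of each section and scaled to CPM on all UMIs (Python 3.11.15, numpy 2.4.6, scipy 1.17.1, pandas 2.3.3, matplotlib 3.10.9). Levels have exact Poisson and ratios exact conditional 95% intervals, which were tested on simulated data. With 1 section per genotype no test was made and no replicate could be left out. Spots were not treated as replicates, and doublets were not called because a spot covers several cells.

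Named genes were the 7 markers, the PD-1 genes, the 20 highest and 10 lowest of chosen over other spots, the 10 highest and 10 lowest of PD1 KO over PD1 Het (all with at least 50 UMIs, without sex-linked, haemoglobin, mitochondrial and ribosomal protein genes), and up to 4 members, with at least 20 UMIs, of each of 37 gene lists with 345 genes. Genes named outside the rule were chosen after their values were seen. The chosen spots, their markers and the lists were set with earlier results of these data known. The settings tried, among them edgeR 4.0.16 TMM factors (R 4.3.3), are given at the end; 4 were chosen after seeing the data.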

Additional observations from a re-analysis of the deposited data

Results flagged for a closer look

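Several genes pointed opposite ways in the sections when chosen spots were compared with the other spots, with intervals of counting error that excluded 0 in each. Cilp had a log2 ratio of -1.53 in PD1 Het and 1.2 in PD1 KO, and Acta1 -1.70 and 0.46. Stk11 had 0.50 and -0.48, and Gstm5 0.73 and -0.68. The sum of the fetal and stress cardiomyocyte genes had -0.35 and 0.07. With 1 section per genotype the difference between the sections was not tested.

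Spots left out because they held Ccl21a also carried the 7 markers. In the 39 such PD1 Het spots the markers had 120.6 CPM (97.4 to 147.5) against 51.3 in the other spots, and in the 15 such PD1 KO spots 158.5 CPM (123.3 to 200.6) against 65.8. The 23 other mesothelial genes had 355.3 CPM there in PD1 Het and 535.2 in PD1 KO.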

How the results depend on the processing

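Of 5588 values recomputed under 18 settings, 4 of them chosen after seeing the data, 4334 stayed within the interval of the reported value and 1227 left it, with 203 and 157 of these changing sign. A further 27 changed sign although the reported ratios were at least 2 times in both sections, or 1.5 times between genotypes. The count of genes at least 2 times higher in the chosen spots (29) became 46 with 20 spots per section, 10 with 80, 5 with spots of at least 5000 UMIs, 3 after thinning spots to 5000 UMIs before ranking, 6 by mean rank of the 7 markers, 67 with mean CPM per spot, 12 without each gene's top spot, 13 with a minimum of 100 UMIs, 123 with 100 UMIs over all spots, 16 with the 4 surface markers and 17 without the 4 muscle-poor spots. The count of lower genes (0) became 2 with 20 spots, 1 by mean rank, 1 with the surface markers and 112 with 100 UMIs over all spots. The PD1 KO counts (486 and 283) became 206 and 82 with a minimum of 100 UMIs and 2566 and 2003 with 100 UMIs over all spots, and the first became 282 with 20 spots. After thinning, 16 of the 40 chosen spots were shared with the choice described in each section. TMM factors shifted the ratios of chosen over other spots by -0.12 in PD1 Het and -0.08 in PD1 KO.

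Those 27 lay mostly in the PD1 Het ratio of chosen over other spots. With 20 spots Plvap was at -1.51. With spots of at least 5000 UMIs Timp1 was at -0.33 and Col12a1 at -0.40. With Ccl21a spots kept Cma1 was at -0.44 and the mast cell sum at -0.37. After thinning Scara3 was at -0.25, Timp1 -0.17, Ctss -0.29, Sdc1 -0.01, Col12a1 -1.28 and Cd68 -0.93. By mean rank Cma1 was at -1.14, Ctss -0.70, Col12a1 -0.04, Aldh1a3 -0.19, Dpp4 -0.02, Plvap -1.08 and the mast cell sum -0.89. With the surface markers Thbs3 was at -0.10, Plvap -1.63 (PD1 KO -0.11) and the mast cell sum -0.26. For PD1 KO over PD1 Het, Slc35b1 was at 0.09 with 20 spots, Saa3 at 4.73 with spots of at least 5000 UMIs and 0.48 by mean rank, and Spp1 at 3.17 after thinning and 1.44 with the surface markers. The cause of these changes was not tested. Genes with 0 UMIs in a set have no finite ratio and were not compared. No paired analysis was possible because each genotype has 1 section.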
